A study of Mus musculus with 86 samples.

Results

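The decay of reporter RNAs in wild-type CAD cells was read by SLAM-seq, as the loss of T>C conversions between the start of a uridine chase (0 h) and 12 h later. The reporters share a GFP transcript and differ in a 260 nt oligo within the 3′ UTR. Oligos were taken when at least 1000 T positions were read in every wild-type library with 4-thiouridine (4SU), which kept 10596 of the 11955 oligos listed in the series and of the 11594 listed in any SLAM-seq library. Of these, 6711 were unmutated tiles of 16 mouse 3′ UTRs and 3885 were companions in which the TDP-43 motifs were replaced. CAD cells are a mouse neuronal-like line that puts out neurites when serum is removed, and all groups below are TetOff TDP-43 cells, a clonal line whose endogenous TDP-43 alleles were inactivated and whose only functional TDP-43 is an HA-tagged transgene that doxycycline shuts off. Cells without doxycycline (-dox) are the wild-type cells, with 2 libraries at 0 h and 3 libraries at 12 h. Cells given 2 µg/mL doxycycline for 48 h (+dox) are the knockout cells, with 3 libraries at each time, and 3 libraries had no 4SU. Libraries are named WT or KO with their hour and replicate number. The wild-type cells thus carry a transgene in place of the native gene, and nothing in the labels says whether replicates were separate cultures, so p-values measure the spread between these libraries.

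The rate at which an RNA disappears is set in part by its 3′ UTR, where RNA-binding proteins and microRNAs recruit or block the deadenylation and decay machinery. In SLAM-seq, cells build 4SU into new RNA during a pulse, alkylation makes the sequencer read 4SU as C, and a chase with unlabelled uridine lets labelled RNA decay while unlabelled RNA replaces it, so that an RNA which turns over fast loses T>C conversions fast. TDP-43 is a nuclear and cytoplasmic RNA-binding protein that prefers GU-rich RNA, and the study asked whether it acts on the stability of the reporters.

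The stretches of sequence below, at most 30 nt each, come from windows at the 2 ends of the decay range. They show repeats, runs and a pentamer that are counted over all windows below. ATTTA lay in 17.97% of faster and 17.4% of slower windows, and a run of 8 T in 6.25% and 6.52%. The stretches were read from GENCODE transcripts on GRCm38, are written 5′ to 3′ as DNA with T for U, and carry capitals where a named repeat, run or pentamer lies. The first 5 come from faster windows and the last 2 from slower windows.
Diras1, GA repeat, chr10:81020168-81020197, minus strand: GAGAGAGAgtgtgtattggaaggGAGAGAG
Wasf3, TGGA repeat, chr5:146472946-146472975, plus strand: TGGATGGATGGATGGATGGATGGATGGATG
Kank2, TGGA repeat, chr9:21767393-21767422, minus strand: ggacagaTGGATGGgTGGATGGATGGATGG
Ksr2, run of T, chr5:117769583-117769612, plus strand: tttttctttctttcTTTTTTTTTTTTTTTT
Sos2, ATTTA pentamer, chr12:69585066-69585095, minus strand: ggaatagtatttgtaaaggtttttaATTTA
Fam160b2, GT repeat, chr14:70583771-70583800, minus strand: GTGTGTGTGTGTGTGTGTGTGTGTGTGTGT
Fam219a, run of C, chr4:41518233-41518262, minus strand: catctgggccccaacgctagaactCCCCCC

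The next 5 stretches are sites in which the study replaced TDP-43 motifs, with the replaced bases in capitals. In the mutated companions TGTGT became ACACA, while each GTGTG was exchanged for CACAC and each GTATG for CATAC. The first 4 belong to pairs whose mutated companion kept more label, and the last belongs to the only stretch of pairs whose companion kept less.
Lrrc47 tile 59, chr4:154020277-154020306, plus strand: agGTGTGgGTATGctgcagGTGTGgGTGTG
Spock2 tile 275, chr10:60133055-60133084, plus strand: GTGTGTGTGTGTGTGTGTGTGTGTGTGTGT
Diras1 tile 245, chr10:81020258-81020287, minus strand: GTGTGTGTGTGTGaagggggagaGTGTGTG
Spock2 tile 24, chr10:60131707-60131736, plus strand: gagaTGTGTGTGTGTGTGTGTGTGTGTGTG
Lrrc47 tile 94, chr4:154020339-154020368, plus strand: ggggtcTGTGTGggtatagGTGTGgGTGTG

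The pool as a whole lost label. The T>C rate of the median oligo was 1.97% and 1.96% in the 2 libraries at 0 h, and 1.16%, 1.16% and 1.32% in the 3 libraries at 12 h, against 0.246%, 0.195% and 0.166% without 4SU. The median oligo thus kept 62.1% ± 4.76 (SD over the 3 libraries at 12 h) of its starting rate, with 51.9% at the lowest decile and 71.3% at the highest. After the rate without 4SU was subtracted, the median oligo kept 57.5%. In edgeR's quasi-likelihood test with Benjamini-Hochberg adjustment, 10224 of the 10596 oligos (96.5%) had a lower rate at 12 h (10231 or 96.6% at an unadjusted p under 0.05). None had a higher one (0 of 10596, 0%), with 0 higher at an unadjusted p under 0.05 and 2 higher in limma.

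The wild-type libraries held 12911551 to 23639392 read pairs, and the median oligo was read at 43127 to 82766 T positions per library. The libraries at 0 h had 176.2 and 176.4 bases per read pair and those at 12 h 181.8 to 182.1, and the part of this in the results was not tested. In knockout cells the difference ran the other way in 2 of the 3 libraries at 12 h (175.6 and 176.0, against 182.1 to 182.3 at 0 h). WT 12 h replicate 2 stood apart, with Spearman correlations of its oligo rates with the other libraries at 12 h of 0.650 and 0.651, against 0.839 between those. Counts that move by over 1.5 times without it are given without it as well.

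The question of which tiles lost label fastest was asked relative to the pool, as the log2 change of a tile's T>C odds from 0 h to 12 h minus that of the median oligo, so that a value below 0 is faster loss. Single unmutated tiles spread from -0.65 at the first percentile to 0.41 at the 99th. No single oligo passed the test, with 0 faster (0% of 10596) and 0 slower (0%) in edgeR's quasi-likelihood test and a lowest Benjamini-Hochberg adjusted p of 0.0697. At an unadjusted p under 0.05, 934 oligos were faster (8.81%) and 890 slower (8.4%). Limma also called 0 in either direction, DESeq2 called 190 faster and 159 slower, and edgeR without WT 12 h replicate 2 called 784 faster and 675 slower.

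Neighbouring tiles start 6 nt apart and share nearly all of their sequence, so the counts of unmutated tiles were summed over windows of 10 consecutive tile numbers, which span 314 nt. Adjoining windows share 254 nt and are not independent of each other. For windows, the pool was the median unmutated tile of each library. Windows of mutated oligos were set against the median mutated oligo. Of 738 windows, 138 lost label faster than the pool (18.7%) and 155 slower (21%) at an adjusted p under 0.05 by the quasi-likelihood test of edgeR. At an unadjusted p under 0.05 these counts were 167 (22.6%) and 197 (26.7%). When a library was centred on the ratio of its summed counts in place of its median tile, 176 were faster and 94 slower, so the balance between the directions depends on the centring. The 293 windows formed 59 faster and 68 slower regions once adjoining windows of a UTR were joined. In each of the 293, the 12 h values did not overlap the 0 h values, as was true of 27.8% of all windows on the lower side and 37.5% on the higher. Non-overlap was also required for a window to enter a region, and it is read from the same values as the test. The mean change of even-numbered tiles followed that of odd-numbered tiles of the same window with a Pearson r of 0.835 over 721 windows. These tiles share their libraries and nearly all of their sequence, so the value is not a measure of replication. The counts rest on both libraries at 0 h, since 36 faster and 34 slower windows were left without WT 0 h replicate 1, and 44 and 34 without WT 0 h replicate 2.

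The fastest loss in the pool came from the start of the Sos2 3′ UTR. Sos2 encodes a guanine nucleotide exchange factor that activates Ras. In the window of tiles 31 to 40, at chr12:69584954-69585267 on the minus strand, the T>C rate was 1.58% and 1.73% at 0 h and 0.501%, 0.582% and 0.672% at 12 h. The times did not overlap, and the window kept 35.4% of its label. Its change relative to the pool was -0.80 (SE 0.09, adjusted p = 0.00118, edgeR), and each of its 10 tiles lay below the pool, from -1.18 to -0.30. The loss had a clear summit: the windows from tiles 1 to 10 up to tiles 61 to 70 stood at 0.10, -0.18, -0.50, -0.80, -0.69, -0.33 and 0.05. The first tile of the window reached 145 bases into the annotated coding sequence and its last tile 91 bases, so the summit straddled the stop codon. No tile of this window carried a TDP-43 motif.

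Diras1 held the second fastest region. Diras1 encodes a small GTPase of the Ras superfamily. Its tiles 241 to 250, at chr10:81020164-81020477 within the annotated 3′ UTR, read 1.70% and 1.68% at 0 h and 0.687%, 0.656% and 0.764% at 12 h. The change relative to the pool was -0.57 (SE 0.05, adjusted p = 0.000862, edgeR), and the 2 sets of values did not overlap. Every tile of the window carried a TDP-43 motif, with a median of 34 motif bases, and the window was rich in G (40.7% of the bases read) beside GA and GT repeats. The windows on its sides, tiles 231 to 240 and 251 to 260, stood at -0.33 and -0.44.

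A tandem TGGA repeat lay in 2 further fast windows. Wasf3 encodes WAVE3, which activates the Arp2/3 complex in actin assembly, and Kank2 encodes an adaptor with ankyrin repeats that binds talin at focal adhesions. In Wasf3 tiles 411 to 420 (chr5:146472738-146473051), where 9 tiles were measured, the rate was 2.41% in both libraries at 0 h and 1.03%, 0.932% and 1.16% at 12 h. Its starting label was above that of the median oligo and its 12 h label below, with a relative change of -0.51 (SE 0.06, adjusted p = 0.00129, edgeR). In Kank2 tiles 241 to 250 (chr9:21767251-21767564) the rate went from 2.00% and 1.99% to 0.950%, 0.897% and 1.05%. The Kank2 change was -0.35 (SE 0.04, adjusted p = 0.00118, edgeR), with no overlap between times. The sequence TGGATGG occurred at 15 positions of the Wasf3 window and 11 of the Kank2 window, and C made up 1.77% and 9.22% of the bases read.

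Of the other 4 of the 8 fastest regions, Soga3 had no placed sequence, and the named windows of Cacna1b, Ksr2 and Synj2bp held no TGGATGG. Soga3 tiles 31 to 40 read 1.80% and 1.85% at 0 h and 0.789%, 0.863% and 0.911% at 12 h, a relative change of -0.39 (SE 0.05, adjusted p = 0.00129, edgeR). Cacna1b encodes the pore-forming subunit of the N-type calcium channel, and its tiles 441 to 450 (chr2:24603975-24604288) read 1.87% and 2.00% at 0 h and 0.921%, 0.80% and 1.06% at 12 h. That window, which holds 10 overlapping occurrences of GAGAGAGA and 3 of ATTTA, changed by -0.36 (SE 0.07, adjusted p = 0.00565, edgeR), and its adjusted p was 0.0511 without WT 0 h replicate 2. In both windows the times did not overlap.

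The remaining pair of fast windows was T-rich and less secure. Ksr2, a scaffold of the Raf-MEK-ERK cascade, had rates of 1.31% and 1.33% at 0 h and 0.657%, 0.352% and 0.638% at 12 h in tiles 641 to 650 (chr5:117769397-117769710). The low value of WT 12 h replicate 2 widened the spread, and the change of -0.52 had an SE of 0.18 and an adjusted p of 0.0471 in edgeR, and did not pass in limma (0.118) or DESeq2 (0.658). Without WT 12 h replicate 2 the change was smaller, at -0.34, and passed (adjusted p = 0.00186, edgeR), while it did not pass without WT 0 h replicate 1 (0.119), WT 0 h replicate 2 (0.137) or WT 12 h replicate 3 (0.141). Synj2bp, a mitochondrial outer membrane protein, had rates of 1.78% and 1.88% at 0 h and 0.961%, 0.704% and 0.894% at 12 h in tiles 191 to 200 (chr12:81501325-81501638). Its change was -0.40 (SE 0.11, adjusted p = 0.0203, edgeR; 0.0543 in limma), and it did not pass without WT 0 h replicate 1 (0.0662), WT 0 h replicate 2 (0.105) or WT 12 h replicate 3 (0.102). T made up 31.8% and 39.4% of the bases read in these windows, and each held a run of at least 8 T.

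At the other end, the slowest loss came from a Fam160b2 window that holds a long GT repeat. Tiles 221 to 230 (chr14:70583510-70583823, minus strand, in the annotated 3′ UTR) read 0.750% and 0.734% at 0 h and 0.638%, 0.603% and 0.646% at 12 h. The window kept 84.8% of its label, or 76.3% after the rate without 4SU was subtracted, and its change relative to the pool was 0.48 (SE 0.05, adjusted p = 0.00118, edgeR). All 10 tiles lay above the pool, from 0.19 to 0.66. With the motifs replaced, the window stood at 0.72 relative to the median mutated oligo (adjusted p = 0.138, edgeR). This window also had less label than the pool at the start of the chase, against 1.97% and 1.96% for the median oligo, and it held 59 overlapping occurrences of GTGTGTGT, with a median of 170.5 motif bases per tile. The window of tiles 231 to 240 stood at 0.47 and those on either side of the pair at 0.14 and 0.15, which did not pass the test (adjusted p = 0.0779 and 0.143, edgeR).

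C-rich windows made up much of the rest of the slow end. Fam219a tiles 311 to 320 (chr4:41518165-41518478) went from 2.16% and 2.22% to 1.67%, 1.62% and 1.83%, a change of 0.34 (SE 0.05, adjusted p = 0.00177, edgeR), and C made up 41.3% of the bases read. Kcnj12 encodes the inward rectifier potassium channel Kir2.2, and its tiles 201 to 210 went from 1.99% and 1.78% to 1.42%, 1.48% and 1.55%. The Kcnj12 change was 0.36 (SE 0.07, adjusted p = 0.00674, edgeR; 0.0952 without WT 0 h replicate 2), with C at 33.2%. These windows kept 77.8% and 78.7% of their starting label, and no tile of either carried a TDP-43 motif.

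A second Fam219a window, tiles 101 to 110 (chr4:41519461-41519738, 4 tiles measured), changed by 0.27 (SE 0.03, adjusted p = 0.00133, edgeR), from 2.16% and 2.15% to 1.55%, 1.51% and 1.70%. Ksr2 tiles 521 to 530 (chr5:117768677-117768990) changed by 0.27 (SE 0.04, adjusted p = 0.00253, edgeR), from 2.08% and 2.06% to 1.49%, 1.42% and 1.68%. Spock2 encodes testican-2, an extracellular proteoglycan, and its tiles 351 to 360 (chr10:60133482-60133795) went from 1.92% and 1.98% to 1.38%, 1.39% and 1.49%. These 3 windows had C at 36.6%, 33.8% and 36.2% of the bases read. The Spock2 change was 0.25 (SE 0.04, adjusted p = 0.00253, edgeR), and the same test on C read as T, which 4SU does not make, gave 0.18 in this window (adjusted p = 0.00146), so the Spock2 value is less certain. In the Ksr2 window C read as T also changed by 0.18, without passing (adjusted p = 0.0666, edgeR). Changes of like size that did not pass stood in the named windows of Sos2 (0.19), Diras1 (0.21), Kcnj12 (0.17) and Fam160b2 (-0.20).

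The last 2 of the 8 slowest regions were not C-rich. The 10 tiles of Wasf3 that end at tile 340 (chr5:146472258-146472571) went from 2.22% and 2.27% to 1.69%, 1.59% and 1.86%, a change of 0.32 (SE 0.03, adjusted p = 0.00118, edgeR), with T at 38.8% and C at 15.9%. This region of 7 adjoining slow windows ended at tile 370, and the fast TGGA region of the same UTR began at tile 401. The slow and the fast summit of Wasf3, at 0.32 and -0.51, thus lay within 1 UTR. Synj2bp tiles 511 to 520 (chr12:81499435-81499718, 5 tiles measured) went from 2.09% and 2.06% to 1.39%, 1.57% and 1.59%. The change there was 0.25 (SE 0.06, adjusted p = 0.0102, edgeR), and it did not pass without WT 0 h replicate 1 (0.063) or replicate 2 (0.0683).

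The 16 UTRs were compared by their median tile. The median unmutated tile of a UTR, taken as log2 of its rate over the library's median oligo, lay lower at 12 h than at 0 h with no overlap between libraries in 10 of 16 UTRs (62.5%) and higher in 4 (25%). With tiles without a motif alone, the counts were 7 and 8, and the medians of Diras1 (0.08) and Kcnj12 (0.09), which were -0.07 and -0.02 over all tiles, changed sign. With 2 libraries against 3, the two-sided exact permutation test cannot go below 0.1, so none of these passed. The lowest were Soga3 (-0.14), Fam160b2 (-0.14), Lrrc47 (-0.13), Ssc5d (-0.11), which encodes a scavenger receptor, and Sos2 (-0.08). The highest were Fam219a (0.06), Spock2 (0.06), Wasf3 (0.03) and Ksr2 (0.01), and those of Tub and Kank2 overlapped between times. Lrrc47 had 14 faster and 1 slower window of 26, and Sos2 10 faster and 0 slower of 26. Spock2 had 21 slower and 7 faster of 61, Wasf3 19 slower and 4 faster of 53, and Ksr2, the longest UTR, 21 faster and 31 slower of 155. These counts are read against 18.7% faster and 21% slower over all windows, and those of Ksr2 lie below both shares. Within Sos2, single tiles, whose spread includes their own counting error, ranged from -0.89 at the 5th percentile to 0.13 at the 95th.

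Faster and slower windows differed in base content. Of the bases read, C made up a median of 20.04% in faster windows, 23.5% in all windows and 27.7% in slower windows, while G made up 27.6%, 24.6% and 22%. Over the 738 windows, the relative change had a Spearman correlation of 0.376 with C content and -0.300 with G content. A and T content went with the change less (-0.081 and -0.106). The T>C rate without 4SU also went with it (0.377), and these points share their libraries and, for adjoining windows, their sequence. The change of C read as T had a Spearman correlation of 0.048 with the change of T read as C. The test of C read as T called 5 faster (0.678%) and 14 slower windows (1.9%) of all 738. It passed, in either direction, in 2 of the 138 faster and 9 of the 155 slower windows, so the called windows are not free of such changes.

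Short motifs were counted on the transcript strand of the 636 windows with a sequence, of which 128 were faster and 138 slower, and the repeats among them were chosen after the sequences at both ends had been read. A window held a motif if it had 1 or more occurrences. TGGATGG was held by 12.3% of all windows, 21.9% of the faster (28 windows) and 5.07% of the slower (7 windows). These are not shares with a tandem repeat, since the fastest Sos2 window, for example, held TGGATGG only 1 time. Of the 14 windows with 10 or more overlapping occurrences of TGGATGG, 6 were faster and 0 slower. GTGTGTGT was held by 10.7% of all windows, 21.1% of the faster and 4.35% of the slower, although the slowest window of all had it. GAGAGAGA was held by 3.62%, 6.25% and 1.45%, and CCCCC by 29.7%, 19.5% and 42.8%. The shares of 4 further motifs are given as values, and no test compares the motifs. ATTTA, the core of AU-rich elements, was held by 17.1% of all windows, 17.97% of the faster and 17.4% of the slower, and a run of 8 T by 5.19%, 6.25% and 6.52%. The Pumilio element TGTANATA was held by 2.83%, 3.91% and 1.45%, and the polyadenylation signal AATAAA by 10.1%, 7.03% and 8.70%.

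TDP-43 motif content went with faster loss in wild-type cells. The median tile without a motif (2778 tiles) changed by 0.03 relative to the pool, tiles with 5 to 9 motif bases by 0.01 (1888 tiles), with 10 to 19 by -0.04 (1177), with 20 to 39 by -0.09 (390) and with 40 or more by -0.16 (478). For tiles with 40 or more motif bases, log2 of the rate over the library's median oligo was -0.42 and -0.45 at 0 h and -0.58, -0.59 and -0.60 at 12 h. Each of the 5 bins had no overlap between times, at the lowest p that the exact permutation test allows (0.1). A motif lay in every measured tile of 54.9% of all windows, 65.2% of the faster and 43.2% of the slower. In the in vitro binding assay of the series (RNA Bind-n-Seq), the abundance with 500 nM TDP-43 over that in the input had a median of 0.692 over all windows, 0.982 over the faster and 0.622 over the slower. Of the 2 ends, the quartiles of the faster windows were wide (0.355 to 3.69), and the correlation over 677 windows was weak (-0.096).

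Mutated companions were used to ask whether the motifs went with the loss, since the oligos of a pair differ only there and were read in the same libraries. The replacement removes or moves T positions within the motifs, so the rates of a pair are taken over partly different T positions. The part of this in the differences was not tested. The median over pairs of log2 of the mutated over the unmutated rate was taken in each library and averaged at each time. From 0 h to 12 h it changed by 0.00 with 5 to 9 motif bases (1876 pairs), 0.03 with 10 to 19 (1173), 0.09 with 20 to 39 (387) and 0.31 with 40 or more (441). In the last bin, log2 of the mutated over the unmutated rate was 0.45 and 0.46 at 0 h and 0.73, 0.79 and 0.75 at 12 h. These did not overlap (exact permutation p = 0.1, the lowest possible), and already at 0 h the mutated oligos carried more label. Of 3877 single pairs, edgeR's quasi-likelihood test called 0 in which the mutated oligo kept more label (0%) and 0 in which it kept less (0%), with 223 (5.75%) and 37 (0.954%) at an unadjusted p under 0.05. Without WT 12 h replicate 2, it called 157 and 9.

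Summed over windows, 37 of 508 kept more label once the motifs were mutated (7.28%) and 1 kept less (0.197%), at an adjusted p under 0.05 (edgeR). Without the library term shared by the oligos of a pair, 0 and 0 passed (lowest adjusted p = 0.107, edgeR), with 28 and 1 at an unadjusted p under 0.05. With the library term, the counts at an unadjusted p under 0.05 were 70 (13.8%) and 10 (1.97%). The difference between the oligos of a pair was lower in all libraries at 12 h than in both at 0 h in 9.25% of the 508 windows and higher in 23.8%. Leaving out WT 0 h replicate 1 or 2 left 14 windows that kept more, and leaving out WT 12 h replicate 2 gave 63, with 0, 0 and 9 that kept less. The 37 windows had a median of 72.5 mutated bases, against 7 over all 508. In RNA Bind-n-Seq their unmutated oligos had a median abundance ratio of 5.53 and their mutated oligos 1.02, against 0.846 and 0.650 over all. These medians cover only windows with a ratio. Spock2 tiles 271 to 280, Diras1 tiles 241 to 250 and Kcnj12 tiles 401 to 410 had none. Of these windows, 24 were among those that lost label faster than the pool in their unmutated form, and 1 among the slower, against 104 and 85 of all 508, but both calls use the same unmutated counts.

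The longest stretch was in Lrrc47, where 9 adjoining windows (tiles 1 to 90) all kept more label without the motifs. In tiles 51 to 60, unmutated oligos read 1.65% and 1.61% at 0 h and 0.822%, 0.763% and 0.907% at 12 h, while mutated oligos read 2.03% and 1.98% and then 1.36%, 1.36% and 1.57%. The difference in change was 0.49 (SE 0.04, adjusted p = 2.6e-05, edgeR), and log2 of the mutated over the unmutated rate rose from 0.30 in both libraries at 0 h to between 0.73 and 0.83. The unmutated window changed by -0.27 relative to the median unmutated tile (adjusted p = 0.00136, edgeR). The mutated window changed by 0.20 relative to the median mutated oligo (adjusted p = 0.00587, edgeR). These references differ, and the windows lay on the fast and the slow side of them. The next window, tiles 91 to 100, went the other way, with a difference of -0.17 (SE 0.04, adjusted p = 0.0143, edgeR). There the mutated oligos read 1.75% and 1.70% at 0 h and 0.869%, 0.85% and 0.976% at 12 h, against 1.78%, 1.77%, 0.990%, 0.983% and 1.15% for the unmutated. This was the 1 window of the 508 that kept less.

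The other pair windows of largest change lay in Spock2, Diras1 and Kcnj12. Spock2 tiles 271 to 280 (8 pairs) differed by 0.49 (SE 0.12, adjusted p = 0.0276, edgeR), with unmutated rates of 1.34% and 1.35% at 0 h and 0.678%, 0.701% and 0.732% at 12 h, and mutated rates of 1.98%, 1.79%, 1.23%, 1.52% and 1.40%. Spock2 tiles 21 to 30 differed by 0.40 (SE 0.04, adjusted p = 0.000151, edgeR), with unmutated rates of 1.58%, 1.54%, 0.829%, 0.849% and 0.953%, and mutated rates of 2.12%, 2.09%, 1.40%, 1.58% and 1.71%. In both, the mutated oligos had more label at 0 h and the gap was wider at 12 h. In Diras1 tiles 241 to 250, the second fastest region of the pool, mutated oligos read 1.75% and 1.81% at 0 h and 0.938%, 0.905% and 1.20% at 12 h, a difference of 0.46 (SE 0.08, adjusted p = 0.00553, edgeR). The mutated oligos of this window stood at -0.14 relative to the median mutated oligo (adjusted p = 0.185, edgeR). Kcnj12 tiles 401 to 410 (7 pairs) differed by 0.40 (SE 0.11, adjusted p = 0.0493, edgeR).

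Once the motifs were mutated, most of the faster and slower windows lay on the same side of the median mutated oligo. Among faster windows, 80 of 104 with mutated oligos were also below that median in mutated form, and 40 passed the test there (10% of all 508 were called faster). Among slower windows, 79 of 85 were above it and 42 passed (14% of all 508 were called slower). In all, 247 of 508 mutated windows lay below this median, which was taken over the mutated oligos themselves. The Spearman correlation of mutated and unmutated change was 0.651 over the 508 windows, which share their libraries and most of their sequence.

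Most of the faster and slower windows also lay on the same side of the pool in knockout cells, which were measured in other libraries. Of the 138 faster windows, 112 were below the pool in knockout cells, and of the 155 slower windows 145 were above it, against 345 of all 738 below. The Spearman correlation of the changes was 0.639 over 738 windows. KO 12 h replicate 1 kept far more label than the others (median rate 1.37%, against 0.432% and 0.480%). With it alone at 12 h, whose read length matched that of the knockout libraries at 0 h, the correlation was 0.670, and without it 0.621. Sos2 tiles 31 to 40 changed by -0.63 in knockout cells and Fam219a tiles 311 to 320 by 0.58, beside -0.80 and 0.34 in wild-type cells. The rate without 4SU, at 0.203% and 0.318% in these windows, was not subtracted. Its part at the low knockout rates was not tested. Of the 8 fastest windows, 3 lay above the pool in knockout cells: Wasf3 tiles 411 to 420 (0.72, or 1.03 without KO 12 h replicate 1), Diras1 tiles 241 to 250 (0.08) and Kank2 tiles 241 to 250 (0.07). For the Wasf3 window the difference between genotypes was 1.23 (SE 0.29), which did not pass the test below (adjusted p = 0.117, edgeR).

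The difference between wild-type and knockout cells was tested as an interaction of genotype and time in edgeR's quasi-likelihood test. It called 0 of 10576 oligos in which label was kept less (0%) or more (0%) in knockout cells, with 364 (3.44%) and 606 (5.73%) at an unadjusted p under 0.05, and 828 and 1280 without KO 12 h replicate 1. Over windows it called 1 that kept less (0.136%) and 2 that kept more (0.271%), all 3 among those named above, and 52 (7.05%) and 58 (7.86%) at an unadjusted p under 0.05. Diras1 tiles 241 to 250 kept more label in knockout cells by 0.65 (SE 0.09, adjusted p = 0.0108, edgeR), and Kank2 tiles 241 to 250 by 0.42 (SE 0.06, adjusted p = 0.0108). Fam160b2 tiles 221 to 230 kept less, by -0.49 (SE 0.07, adjusted p = 0.0108, edgeR). The 3 windows stood at 0.08, 0.07 and -0.02 in knockout cells, close to the pool. These counts depend on KO 12 h replicate 1, since without it 198 windows kept less and 249 kept more, and on the libraries at 0 h, since 0 and 0 passed without either wild-type library or without KO 0 h replicate 2 or 3.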

How the data were processed

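The authors trimmed SLAM-seq reads with cutadapt, aligned read pairs to the oligo sequences with bowtie2, counted conversions with a modified PIGPEN and deposited, for each library, counts per oligo of every reference base and the base read there; the labels also name Salmon, mm10 and hg38, with versions not given in the sources used here. From these deposited counts, the T>C rate was T read as C over T read as C or T. The members, lists and motifs were chosen with earlier results of these data known. Changes were tested with edgeR 4.0.16 (modelMatrixMeth, glmQLFTest, R 4.3.3) on the counts, two-sided, with Benjamini-Hochberg adjustment over all features, at 0.05. The odds of each library's median oligo entered as an offset. For windows these were the odds of the median unmutated tile, and for mutated windows those of the median mutated oligo. For pairs, a library term was shared by both oligos. limma 3.58.1 on log2 rates (0.5 added to counts) and DESeq2 1.42.0 were alternatives. The edgeR tests were also run on counts simulated with dispersions from the fits and no read-length effect, so they cannot show what such an effect does. For simulated log2 changes of 0.5, 73 of 100 oligos and 37 of 100 pairs were called. For changes of 0.25, 93 of 100 windows were called.

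The rule for named tiles found none, since no single tile passed. Windows of 10 tile numbers, their names (the window of largest change in each of the 8 faster and 8 slower regions with the largest change, and the pair window of largest change in up to 5 regions per direction) and the motifs were therefore chosen after the data were seen. The faster and slower regions took only windows that passed the test with no overlap between times. Tiles were placed by matching names, mutated sites and base content to GENCODE transcripts on GRCm38, which worked for 15 of 16 UTRs and 6491 of 7389 unmutated tiles; Soga3 was not placed. Windows with under 100 RNA Bind-n-Seq input reads had no binding ratio. The SLAM-seq and RNA Bind-n-Seq counts are read counts, not molecules. For the localization of the reporters, the paper describes counting unique molecular identifiers per oligo. The RNA-seq tables of cells and neurites were not used here.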

Additional observations from a re-analysis of the deposited data

Results flagged for a closer look

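For 3 windows the change over the chase differed between knockout and wild-type cells, by the interaction term of edgeR's quasi-likelihood test. Diras1 tiles 241 to 250 differed by 0.649 and Kank2 tiles 241 to 250 by 0.42 (log2, knockout minus wild-type), and Fam160b2 tiles 221 to 230 differed by -0.494. Each had an adjusted p of 0.0108 among 738 windows. The windows changed by 0.15, 0.08 and -0.02 in knockout cells when KO 12 h replicate 1 was left out, against 0.08, 0.07 and -0.02 with it. Whether this library's label or the read lengths that differ between times take part in these differences was not tested.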

How the results depend on the processing

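Wild-type cells had 2 libraries at 0 h, whose reads were shorter than those at 12 h, so read length and chase time cannot be told apart there. The in vitro binding values rest on 1 input library. Rates near those without 4SU understate label loss, and the dispersion was 0.00356 for single oligos against 0.00071 for windows. Of 224 values of the 16 named windows under the alternatives, 206 kept their direction and side of the threshold, 18 kept only their direction and 0 reversed.

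For single oligos, DESeq2 called 190 faster and 159 slower, and the test of C read as T called 9 and 21, against 0 and 0. For windows, a threshold of 0.01 gave 65 faster and 78 slower, centring on the ratio of summed counts 176 and 94, windows of 20 tiles 74 faster (of 377), and C read as T 5 and 14. Limma called 2 oligos higher at 12 h. For pair windows, a threshold of 0.01 gave 23 that kept more and 0 that kept less, and the fit without a shared library term 0 and 0 (28 and 1 at an unadjusted p under 0.05). With tiles without a motif alone, 8 UTRs lay higher at 12 h with no overlap, and the medians of Diras1 (0.082) and Kcnj12 (0.094) changed sign. The cause of these changes was not tested.

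Leaving out each library in turn gave 0 to 784 faster and 0 to 675 slower oligos, 36 to 205 faster and 34 to 212 slower windows, 0 to 157 pairs that kept more and 0 to 9 that kept less, and 14 to 63 pair windows that kept more and 0 to 9 that kept less. For knockout against wild-type cells it gave 0 to 828 oligos that kept less and 0 to 1280 that kept more, and 0 to 198 and 0 to 249 windows. The upper ends came without WT 12 h replicate 2 and, for the knockout comparison, without KO 12 h replicate 1.

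Libraries of the 2 times share replicate numbers, of which wild-type cells have only 2, and same-numbered wild-type libraries did not deviate together (r of -0.022 and -0.006 over oligos), nor did those of knockout cells (-0.02, 0.011 and -0.015). With the replicate number as a block, 198 oligos were faster and 104 slower, 101 windows faster and 105 slower, 43 pairs kept more and 3 less, 50 pair windows kept more and 3 less, and 0 windows kept less or more in knockout cells (lowest adjusted p = 0.234), which ends the 3 calls there.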

Other observations

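Windows with a long TGGA repeat lay below the pool in wild-type cells and above it in knockout cells. In 14 windows of Kank2, Ksr2 and Wasf3 with 10 or more overlapping occurrences of TGGATGG, the wild-type change relative to the pool ran from -0.51 to -0.01, with a median of -0.16, against 0.02 over all 738 windows, and 6 of them passed the test as faster (18.7% of all windows did). In knockout cells all 14 lay above the pool, from 0.07 to 0.74 with a median of 0.50, where 391 of all 738 windows did. With KO 12 h replicate 1 alone at 12 h the median was 0.10, and without it 0.70. Of the 14, 1 passed the test of the difference between genotypes as keeping more label in knockout cells (0.271% of all windows did). Adjoining windows share sequence, so the 14 are fewer than 14 independent sites, and the repeat was picked after the fast windows had been read. In the 9 of them with mutated oligos, the median change of the mutated oligos was -0.18 relative to the median mutated oligo.

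GT repeats did not go one way. The 26 windows with 10 or more overlapping occurrences of GTGTGTGT, in Cacna1b, Fam160b2, Fam219a and Spock2, had a median of -0.07, with 10 faster and 2 slower (18.7% and 21% over all windows). The 2 windows with 50 or more, both in Fam160b2, stood at 0.14 and 0.48. The median change of the mutated oligos was 0.55 in these 2 windows and 0.14 in the 26. Localization of the same reporters in wild-type cells, as log2 of neurite over soma abundance, had a median of -0.08 in faster windows, -0.04 in all and -0.01 in slower windows, and its Spearman correlation with the change over the chase was 0.222 over 738 windows, with Pearson's r at -0.048.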
